A study of Homo sapiens with 2 samples.

Results

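The genes described here are 54 members of the WNT pathway, comprising ligands, receptors, antagonists, cytoplasmic transducers, nuclear factors and target genes, taken as a list by gene symbol. The rule used no measured value, but the list was drawn up with earlier results of these data known. They were followed in H322c cells, an established NSCLC cell line, cultured 4 days in medium with 1 µM gefitinib, an inhibitor of the EGFR kinase, or 4 days with 0.1% DMSO as the control. Cells were plated 24 hrs before addition of drug or vehicle, and total RNA was hybridized to U133 Plus 2.0 arrays of Affymetrix, with a single array for each condition. There are no replicates, no test was possible, and treatment cannot be told apart from culture, labelling or hybridization, so each difference describes these 2 arrays. Of the 54 genes, 49 had probe sets annotated with that gene alone, 132 probe sets in all. The whole table held 54675 probe sets, and 19775 genes were named by probe sets with 1 annotated gene. The remaining 5 genes (WNT3, WNT3A, FZD8, TCF7 and PORCN, the acyltransferase that modifies WNT ligands) were not analysed here, and the probe sets listed for WNT3 and FZD8 each carried a second gene.

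WNT proteins are secreted, lipid-modified ligands that bind Frizzled receptors on the cell surface. With the coreceptors LRP5 or LRP6 they recruit Dishevelled (DVL) and stop a complex of AXIN, APC and GSK3B from marking β-catenin for degradation, so that β-catenin enters the nucleus and joins TCF/LEF factors, which otherwise hold target genes silent together with TLE corepressors. Other ligands and receptors act without β-catenin, through ROR receptors or the planar polarity proteins. In the lung, WNT signaling is known for its part in airway and alveolar development and in the maintenance of epithelial progenitors.

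Deposited values were MAS5 signal intensities on a linear scale in arbitrary units. Any signal under 100 was raised to 100, a floor that 60.4% of all probe sets failed to reach with gefitinib and 61.6% with DMSO. Probe sets that reached the floor with gefitinib, with DMSO or with both were taken as measured, and each gene was given the value of its brightest measured probe set. Ratios of 2 or more in either direction were counted as differences, and a ratio against a signal under the floor is a lower limit, written as at least N-fold. Within a gene, the log2 ratios of its probe sets varied with an SD of 0.54 over 4610 genes, and 0.51 over the 13 WNT pathway genes that allowed it, which is the only error that can be given and does not cover the spread between cultures. The array reads pooled RNA, so a difference in the share of cells that make a transcript cannot be told apart from a difference in the amount per cell. All 8 epithelial markers were measured, with signals from 3551.6 to 30962.3 with gefitinib and from 5296.5 to 38923.3 with DMSO, and all stayed within 2-fold. No leukocyte marker of 5 reached the floor. Among 7 fibroblast markers only COL1A1 was measured (950.2 with gefitinib and 420.8 with DMSO, 2.26-fold higher). Among 4 endothelial markers VWF (496.0 with gefitinib and 30.0 with DMSO, at least 4.96-fold higher) and PECAM1 (78.0 with gefitinib and 128.4 with DMSO) were measured. The red cell marker HBB had 57.8 with gefitinib and 110.7 with DMSO, while DCN, LUM, PDGFRB, CDH5 and KDR did not reach the floor. The part of these transcripts in the values below was not tested.

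WNT pathway transcripts differed widely in H322c cells after gefitinib, with the ligands WNT4, WNT5A and WNT7B, the repressor TCF7L1, the ubiquitin ligase ZNRF3 and the corepressor TLE2 between 3.07-fold and 8.08-fold higher, and the ligand WNT7A at least 8.69-fold lower. Of the 49 genes, 38 were measured, and 35 of them reached the floor on both arrays. On the gefitinib array 14 of the 38 were at least 2-fold higher (36.8%), beside 13.3% of all 11223 measured genes, and 4 were at least 2-fold lower (10.5%), beside 6.20% of all measured genes. The other 20 did not reach 2-fold, of which ROR1 has only a bound. When only genes that reached the floor on both arrays were counted, 13 of 35 WNT pathway genes were higher (37.1%) beside 12.2% of 10190 genes, and 3 were lower (8.57%) beside 6.24%. The median log2 ratio was 0.23 for the 38 genes and 0.12 for all measured genes. Counted by probe set, 18 of 70 measured WNT pathway probe sets were at least 2-fold higher (25.7%) beside 12.1% of 20172, and 5 were lower (7.14%) beside 7.26%. By probe set, the share of members called lower was thus near that of all features.

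**Figure D1:**
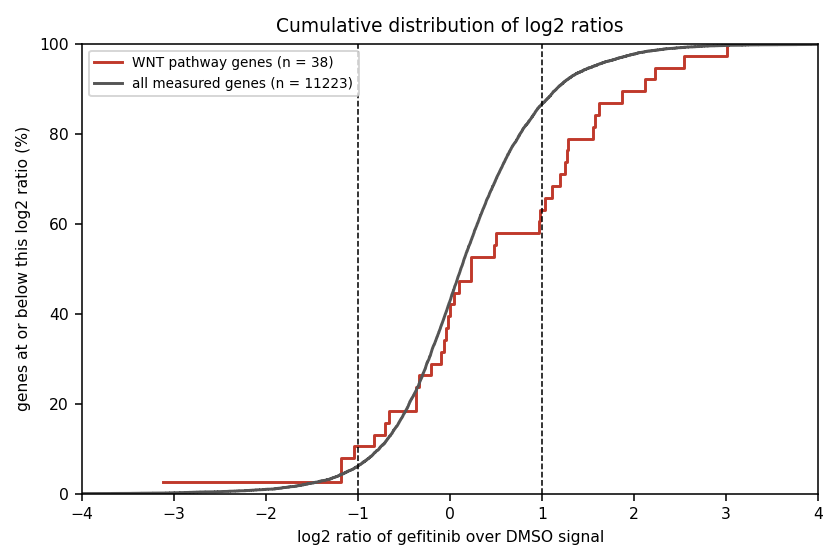
Share of genes at or below each gefitinib over DMSO log2 ratio (vertical axis in %, horizontal axis in log2 units) for the 38 measured WNT pathway genes (red) and all 11223 measured genes (grey), 1 array per condition, dashed lines at 2-fold. The red curve lies below the grey one on the right, where 36.8% of WNT pathway genes and 13.3% of all genes passed 2-fold.

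**Figure D2:**
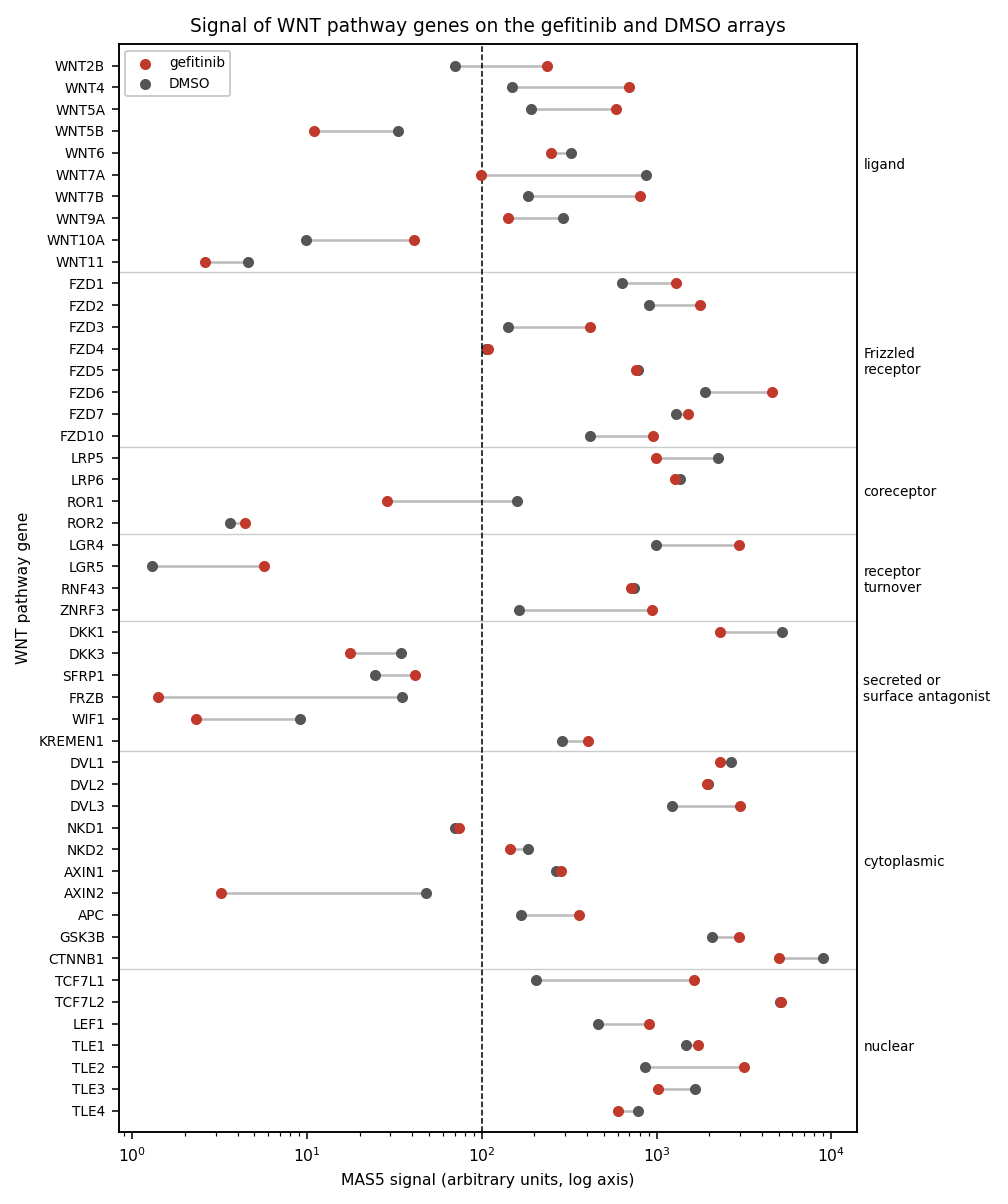
MAS5 signal (horizontal log axis, arbitrary units) of 49 WNT pathway genes on the gefitinib array (red) and the DMSO array (grey), ordered by role, each at its brightest probe set or, for the 11 genes below the floor, the probe set with the highest signal. A dashed line marks the floor of 100, below which no difference was read, and of the genes wholly to the right of it TCF7L1 and ZNRF3 have the widest gaps.

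Of the 10 ligands with a probe set, 7 were measured, and the direction of the differences was split. Gefitinib treated cells had at least 2-fold higher signals of 4 ligands (57.1%) and at least 2-fold lower signals of WNT7A and WNT9A (28.6%). Among all measured genes 13.3% were higher and 6.20% lower. The ligand shares rest on only 7 genes, of which WNT2B is a bound and WNT9A sits at the 2-fold line. WNT4, a ligand known from kidney and reproductive tract development, had a signal of 694.0 with gefitinib and 148.1 with DMSO at 208606_s_at, 4.69-fold higher (log2 ratio 2.23). Its other measured probe set, 230751_at, had 107.0 with gefitinib and 35.4 with DMSO, at least 1.07-fold higher. WNT7B, which is expressed by the developing airway epithelium of the mouse, was higher at both of its probe sets. At 238105_x_at it had 799.7 with gefitinib and 184.9 with DMSO, 4.33-fold higher (log2 ratio 2.11), and at 217681_at 302.4 with gefitinib and a signal at the floor of 100 with DMSO, a log2 ratio of 1.60. WNT5A, the best known ligand of the β-catenin-independent branch, had 589.3 with gefitinib and 191.9 with DMSO at 205990_s_at, 3.07-fold higher (log2 ratio 1.62). At 213425_at it had 156.2 with gefitinib and 42.8 with DMSO, at least 1.56-fold higher, so both probe sets had the same direction. WNT2B, which acts with WNT2 in specifying the mouse lung, was dim: 236123_at had 237.1 with gefitinib and 70.3 with DMSO, at least 2.37-fold higher, and 238512_at had 139.7 with gefitinib and 67.2 with DMSO.

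WNT7A showed the opposite. This ligand, known for limb patterning, is the paralog of WNT7B, and its probe set 210248_at had a signal of 98.5 with gefitinib and 869.0 with DMSO. Since 98.5 is just under the floor, the difference is at least 8.69-fold lower (log2 ratio -3.12), and it was the lowest log2 ratio of any measured WNT pathway gene. WNT9A, a ligand of joint development, had 141.1 with gefitinib and 290.7 with DMSO at 230643_at, 2.06-fold lower (log2 ratio -1.04). This value sits at the 2-fold line, and under centring on control probe sets it was -0.90, under scaling to GAPDH -0.78 and with a floor of 200 -0.54. WNT6 gave no clear direction, with 249.4 with gefitinib and 322.1 with DMSO at 71933_at but 170.7 with gefitinib and 29.0 with DMSO at 221609_s_at. WNT5B (highest signal 33.0), WNT10A (40.9) and WNT11 (4.6) did not reach the floor on either array.

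**Figure D3:**
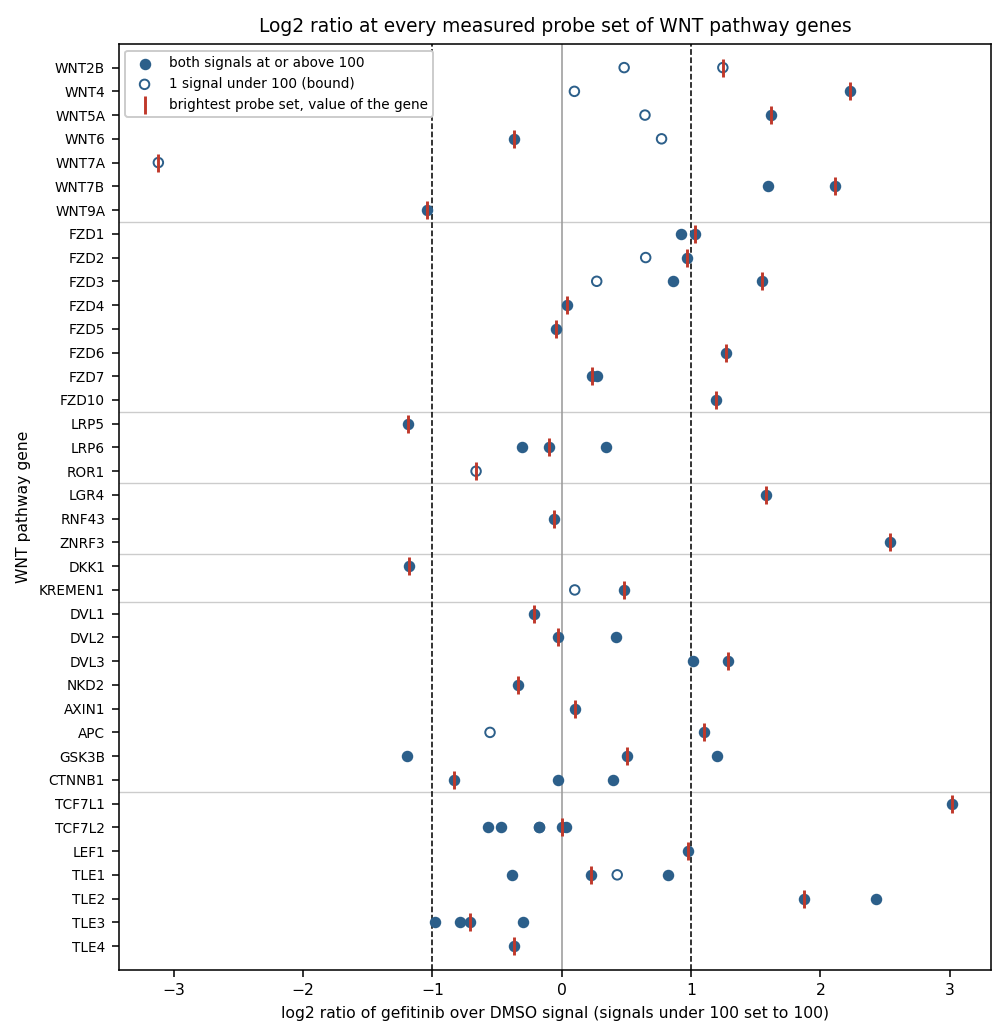
Gefitinib over DMSO log2 ratio (horizontal axis, signals under 100 set to 100) at each of the 70 measured probe sets of 38 WNT pathway genes, from a single array for each condition. Open points rest on 1 signal under the floor and are bounds, a red bar marks the probe set taken for the gene, and dashed lines stand at 2-fold; TCF7L1 lies farthest right (3.01) and WNT7A farthest left (-3.12).

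Promoter sequence is shown for TCF7L1, WNT4 and WNT7A, which had the largest differences among members with 1 annotated RefSeq window, to give the DNA next to the start of genes that differed most, and for DKK1 because it holds letters that TCF/LEF factors bind. RefSeq (GRCh38.p14) windows were found for 39 of the 54 genes, 52 windows in all, and the 250 bases before each annotated start were searched on both strands. The TCF/LEF motif CTTTGAT was in 2.26% of 35116 such windows of all genes and in 0 of the 52, and CTTTGTT was in 4.50% of all windows and in 3 of the 52, those of DKK1, TCF7 and 1 of TCF7L2. The AP-1 motif TGANTCA was in 6.57% of all windows and 1 of the 52, the ETS motif CCGGAAG in 8.52% and 2, and the FOXO motif GTAAACA in 2.98% and 2. None of the motifs overlapped in a printed window, and the windows of TCF7L1, WNT4 and WNT7A held none of them. The windows are TCF7L1 at chr2:85133142-85133391 (plus strand, 8.08-fold higher), WNT4 at chr1:22143098-22143347 (minus strand, 4.69-fold higher), WNT7A at chr3:13880072-13880321 (minus strand, at least 8.69-fold lower) and DKK1 at chr10:52314031-52314280 (plus strand, 2.27-fold lower). Each is written 5′ to 3′ toward the start of its gene. Capitals mark the TCF/LEF motif CTTTGTT, whose first base lies at -76 from the start of DKK1. Only CTTTGAT and CTTTGTT were searched for TCF/LEF, so related letters, such as ctttgaa in the DKK1 window, are unmarked. A match is only a description of the letters, and G and C made up between 62.8% (DKK1) and 86.8% (WNT4) of the bases.
TCF7L1: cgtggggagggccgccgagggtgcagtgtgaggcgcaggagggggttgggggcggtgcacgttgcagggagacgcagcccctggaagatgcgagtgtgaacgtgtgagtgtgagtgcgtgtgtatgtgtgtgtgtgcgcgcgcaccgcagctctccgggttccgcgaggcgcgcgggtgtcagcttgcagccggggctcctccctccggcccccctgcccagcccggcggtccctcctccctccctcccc
WNT4: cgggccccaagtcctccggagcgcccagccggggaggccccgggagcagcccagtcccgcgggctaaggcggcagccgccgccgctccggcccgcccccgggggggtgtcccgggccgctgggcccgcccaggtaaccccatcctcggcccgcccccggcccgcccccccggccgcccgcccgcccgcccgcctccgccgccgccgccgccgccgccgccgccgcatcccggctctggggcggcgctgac
WNT7A: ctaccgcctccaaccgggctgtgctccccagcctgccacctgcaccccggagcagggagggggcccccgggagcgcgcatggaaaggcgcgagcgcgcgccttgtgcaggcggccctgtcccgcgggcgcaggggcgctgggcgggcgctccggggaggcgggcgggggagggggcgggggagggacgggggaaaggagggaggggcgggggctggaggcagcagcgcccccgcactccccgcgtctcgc
DKK1: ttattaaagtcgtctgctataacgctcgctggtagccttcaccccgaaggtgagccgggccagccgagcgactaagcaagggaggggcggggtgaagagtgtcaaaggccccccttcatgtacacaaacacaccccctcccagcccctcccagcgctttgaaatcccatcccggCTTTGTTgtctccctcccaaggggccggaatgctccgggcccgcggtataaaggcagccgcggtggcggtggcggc

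The Frizzled receptors, which span the membrane and bind WNTs through a cysteine-rich domain, were higher or little different. Of 8 measured, 4 were at least 2-fold higher and none was at least 2-fold lower, with a median log2 ratio of 1.00, beside 13.3% higher and 6.20% lower among all measured genes. With so few receptors, the absence of a lower one cannot be set apart from the share of all genes. FZD3, known from axon guidance, had the highest ratio: 219683_at had 415.7 with gefitinib and 142.1 with DMSO, 2.93-fold higher (log2 ratio 1.55). Its other measured probe sets went the same way, 239082_at with 295.8 with gefitinib and 162.6 with DMSO, and 227524_at with 120.6 with gefitinib and 65.8 with DMSO. FZD6, which acts in planar polarity of mouse hair, had 4557.0 with gefitinib and 1891.4 with DMSO at its only probe set, 2.41-fold higher (log2 ratio 1.27). FZD10 had 949.5 with gefitinib and 415.5 with DMSO, 2.29-fold higher at its only probe set (log2 ratio 1.19). At the brightest probe sets, the log2 ratios of these 3 receptors lay above those of FZD4, FZD5 and FZD7 by more than the SD between probe sets. That SD does not cover the spread between cultures. At its dimmer probe sets FZD3 had a log2 ratio of 0.86 (239082_at) and of at least 0.27 (227524_at).

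FZD1 and FZD2 lay on either side of the 2-fold line, and FZD7, which belongs to the same subfamily, did not reach it. FZD1 had 1297.1 with gefitinib and 634.6 with DMSO at 204451_at, 2.04-fold higher (log2 ratio 1.03), and 527.9 with gefitinib and 278.3 with DMSO at 204452_s_at (0.92). FZD2 had 1767.8 with gefitinib and 905.0 with DMSO at 210220_at, 1.95-fold higher (log2 ratio 0.97). The difference between FZD1 and FZD2 is far smaller than the SD of 0.54 between probe sets, so these receptors cannot be ordered. FZD7 had 1516.1 with gefitinib and 1291.5 with DMSO at 203706_s_at (log2 ratio 0.23), and 0.27 at 203705_s_at. FZD5 had 760.0 with gefitinib and 784.6 with DMSO (log2 ratio -0.05), and FZD4, just above the floor, had 109.1 with gefitinib and 106.2 with DMSO.

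The coreceptors of the β-catenin branch differed from each other. LRP5 had 995.2 with gefitinib and 2263.3 with DMSO at 209468_at, 2.27-fold lower (log2 ratio -1.19), its other probe set being below the floor. LRP6 stayed within 2-fold at 3 probe sets, with 1272.2 with gefitinib and 1365.6 with DMSO at 225745_at (log2 ratio -0.10), and log2 ratios of 0.35 at 34697_at and -0.31 at 205606_at. With GAPDH as the reference for scaling LRP5 had a log2 ratio of -0.92, under 2-fold. ROR1, a receptor tyrosine kinase that binds WNT5A, had 28.8 with gefitinib and 158.3 with DMSO at 211057_at, at least 1.58-fold lower, a limit from which it is not known if 2-fold was passed. The related ROR2 was below the floor, with a highest signal of 4.4.

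Receptor turnover genes included some of the larger differences. ZNRF3 and RNF43 are membrane ubiquitin ligases that remove Frizzled receptors from the surface, and R-spondins, captured by LGR4 or LGR5, relieve the receptors of them. ZNRF3 had 946.5 with gefitinib and 163.2 with DMSO at its only probe set, 226360_at, 5.80-fold higher (log2 ratio 2.54), rank 56 from the top among the 10190 genes that reached the floor on both arrays. RNF43 had 712.9 with gefitinib and 744.9 with DMSO at its only probe set (log2 ratio -0.06), so only 1 ligase of the pair differed by more than the spread between probe sets. LGR4 had 2954.8 with gefitinib and 988.9 with DMSO at 218326_s_at, 2.99-fold higher (log2 ratio 1.58), with its other probe sets below the floor. LGR5, a marker of intestinal stem cells, was not measured (highest signal 5.7).

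Secreted antagonists mostly did not reach the floor. DKK1, which binds LRP5 and LRP6 and blocks them, had 2296.6 with gefitinib and 5214.4 with DMSO at its only probe set, 204602_at, 2.27-fold lower (log2 ratio -1.18). It thus stood just past the 2-fold line, and scaling to GAPDH gave -0.92. KREMEN1, a surface receptor for DKK1, had 402.8 with gefitinib and 289.3 with DMSO at 227250_at, 1.39-fold higher (log2 ratio 0.48). DKK3, a divergent relative of DKK1, and SFRP1, FRZB and WIF1, which bind WNTs outside the cell, did not reach the floor at any probe set, and their highest signals were 34.6 for DKK3, 41.5 for SFRP1, 35.0 for FRZB and 9.1 for WIF1.

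In the cytoplasm most transducers stayed within 2-fold, the exceptions being DVL3 and APC. DVL3, 1 of 3 Dishevelled proteins that pass the signal from the receptor, had 3006.7 with gefitinib and 1234.1 with DMSO at 201908_at, 2.44-fold higher (log2 ratio 1.28), and 217.3 with gefitinib and 107.3 with DMSO at 201907_x_at (1.02). Its paralogs did not follow: DVL1 had 2300.8 with gefitinib and 2667.8 with DMSO (log2 ratio -0.21). DVL2 had 1936.3 with gefitinib and 1975.3 with DMSO at 57532_at (log2 ratio -0.03) and 0.42 at 218759_at. NKD2, which binds Dishevelled, had 145.8 with gefitinib and 184.0 with DMSO (log2 ratio -0.34), and its relative NKD1 was the nearest of the unmeasured genes to the floor, with a highest signal of 74.2.

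The destruction complex gave mixed readings. AXIN1, its scaffold, had 283.9 with gefitinib and 264.9 with DMSO (log2 ratio 0.10), and AXIN2, a scaffold that is itself a β-catenin target, was below the floor at all of its probe sets (highest signal 48.0). APC had 359.5 with gefitinib and 167.3 with DMSO at 203525_s_at, 2.15-fold higher (log2 ratio 1.10), but 24.0 with gefitinib and 146.9 with DMSO at 216933_x_at, at least 1.47-fold lower, so that its probe sets went in opposite directions. GSK3B, a kinase of the complex, likewise had no settled direction. Its brightest probe set, 226191_at, had 2950.8 with gefitinib and 2082.7 with DMSO (log2 ratio 0.50), 226183_at had 462.3 with gefitinib and 201.1 with DMSO (1.20), and 209945_s_at had 608.6 with gefitinib and 1396.1 with DMSO (-1.20). CTNNB1, which encodes β-catenin, had 5055.4 with gefitinib and 8983.8 with DMSO at 201533_at, 1.78-fold lower (log2 ratio -0.83), while 1554411_at had 275.8 with gefitinib and 209.3 with DMSO (0.40) and 223679_at was level (-0.03).

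Among nuclear factors, TCF7L1 had the highest log2 ratio of any WNT pathway gene. TCF7L1, a TCF factor that acts mostly as a repressor in the absence of β-catenin, had 1643.6 with gefitinib and 203.5 with DMSO at its only probe set, 221016_s_at, 8.08-fold higher (log2 ratio 3.01, rank 25 of 10190). LEF1, another factor of the family, had 911.6 with gefitinib and 464.5 with DMSO at 221558_s_at, 1.96-fold higher (log2 ratio 0.97), just short of the line. TCF7L2 was level: its brightest probe set, 212761_at, had 5125.3 with gefitinib and 5121.8 with DMSO (log2 ratio 0.00), and its 6 measured probe sets ran from -0.57 to 0.04. The gap between TCF7L1 and TCF7L2 exceeds the SD of 0.54 between probe sets.

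The TLE corepressors, which TCF/LEF factors recruit, also diverged. TLE2 was higher at both probe sets, with 3152.7 with gefitinib and 861.9 with DMSO at 40837_at, 3.66-fold higher (log2 ratio 1.87), and 2191.4 with gefitinib and 405.7 with DMSO at 204431_at (2.43). TLE3 was lower at all 4 of its probe sets without reaching 2-fold at any, from 447.3 with gefitinib and 880.6 with DMSO at 212769_at (log2 ratio -0.98) to 454.5 with gefitinib and 560.6 with DMSO at 228340_at (-0.30). TLE1 had 1724.1 with gefitinib and 1476.0 with DMSO at 203221_at (log2 ratio 0.22) and ran from -0.39 to 0.82 over 4 probe sets. TLE4 had 605.4 with gefitinib and 781.0 with DMSO (log2 ratio -0.37).

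Of the 18 genes past 2-fold, 9 had more than 1 measured probe set. In 8 of the 9 all measured probe sets had the same direction, APC being the exception, and in DVL3, TLE2 and WNT7B all of them passed 2-fold. The other 9 rest on 1 measured probe set each: WNT7A, WNT9A, FZD6, FZD10, LRP5, LGR4, ZNRF3, DKK1 and TCF7L1. Over 12 other settings of scaling, floor and probe set choice, 11 of the 18 stayed past 2-fold in the same direction, 10 higher (TCF7L1, ZNRF3, WNT4, WNT7B, TLE2, WNT5A, LGR4, DVL3, FZD6 and FZD10) and WNT7A lower. The remaining 7 (WNT2B, FZD1, FZD3, APC, WNT9A, LRP5 and DKK1) fell short of it in at least 1 setting. TCF7L1, ZNRF3, LGR4, FZD6, FZD10 and WNT7A have 1 measured probe set, so the probe set choices could not change their values. FZD10 stayed past 2-fold only narrowly, with a log2 ratio of 1.003 under spike-in scaling.

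**Figure D4:**
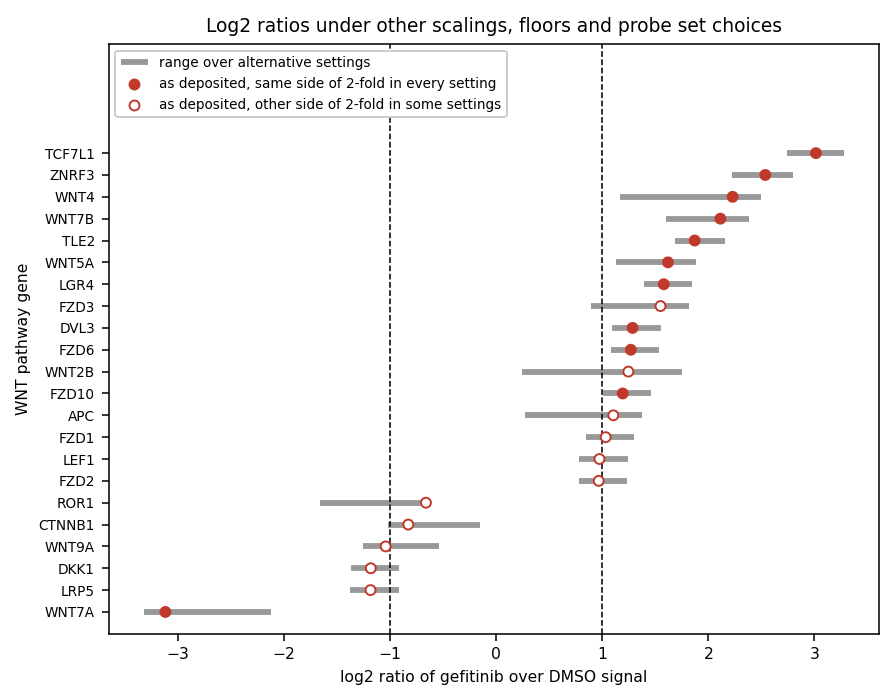
Gefitinib over DMSO log2 ratio (horizontal axis) as deposited (points) for the WNT pathway genes past 2-fold, or past it in some setting, with the range over the other scalings, floors and probe set choices (grey bars). Filled points mark the 11 genes that stayed past 2-fold (dashed lines) in every setting; the bar of APC runs from 0.27 to 1.37 and that of TCF7L1 from 2.74 to 3.28.

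Further genes of the pathway were listed apart from the members. Of 9 measured genes of the planar polarity branch, which orients cells within a sheet without β-catenin, 3 were at least 2-fold higher and none lower. Among all measured genes 13.3% were higher and 6.20% lower, and the median log2 ratio was 0.73 for the branch beside 0.12 for all genes. With only 9 genes, the absence of a lower one cannot be set apart from the share of all genes. VANGL2 had 451.9 with gefitinib and 77.9 with DMSO, at least 4.52-fold higher. PRICKLE1 had 1864.4 with gefitinib and 510.9 with DMSO, 3.65-fold higher at its brightest probe set, and its 4 probe sets had log2 ratios from 0.69 to 2.95. CELSR1 had 1791.0 with gefitinib and 758.4 with DMSO (log2 ratio 1.24), but -0.51 at its other probe set, and CELSR3 had a log2 ratio of 0.88.

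Of 14 measured genes of the destruction complex and the nuclear partners of β-catenin, 2 were higher and 1 lower by 2-fold, which is near the shares of all measured genes (13.3% and 6.20%). BTRC, the ubiquitin ligase subunit that recognises phosphorylated β-catenin, had 527.6 with gefitinib and 206.3 with DMSO (log2 ratio 1.35), but its 3 probe sets ran down to -0.56. The casein kinases CSNK1D (log2 ratio 1.16, and 0.11 at its other probe set) and CSNK1E (-1.08, and -1.45 at the other) went in opposite directions, and PYGO1 was at least 1.57-fold higher. Of 3 measured genes of the other ligands and WNT secretion, WLS (log2 ratio -0.16) and NOTUM (0.23) stayed within 2-fold. The 3 probe sets of WLS ran from -0.16 up to 0.84, so its direction was not settled. WNT10B had 20.4 with gefitinib and 107.1 with DMSO, at least 1.07-fold lower, a limit from which it is not known if 2-fold was passed. Of 4 measured receptors and modulators, PTK7 (log2 ratio 0.94), KREMEN2 (0.53) and RYK (0.43, and down to -0.11 over its 3 probe sets) stayed within 2-fold. SOSTDC1 had 132.5 with gefitinib and 2.8 with DMSO, at least 1.32-fold higher, and here too it is not known if 2-fold was passed. None of the 4 R-spondin genes reached the floor.

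Transcripts known as β-catenin targets were measured in part. Of 7 measured of 13 with a probe set, 2 were at least 2-fold higher, 1 was lower and 4 were within 2-fold, with a median log2 ratio of 0.23. With so few genes these counts cannot be set apart from the shares of all measured genes (13.3% higher and 6.20% lower). Nothing is read from the counts for the group. SOX9 had 417.9 with gefitinib and 2440.1 with DMSO at 202936_s_at, 5.84-fold lower (log2 ratio -2.55), and -2.89 at its other probe set. TNFRSF19 had 511.8 with gefitinib and 42.1 with DMSO, at least 5.12-fold higher, and BMP4 had 463.2 with gefitinib and 18.7 with DMSO, at least 4.63-fold higher. MYC had a log2 ratio of 0.98, while CCND1 had 2074.2 with gefitinib and 2080.5 with DMSO at its brightest probe set (log2 ratio 0.00) and a log2 ratio of -0.75 at its other one. CD44, ASCL2, SP5, MMP7, PROX1 and CDX1 did not reach the floor, nor did the members AXIN2, NKD1 and LGR5. The members ZNRF3 (log2 ratio 2.54), LEF1 (0.97), RNF43 (-0.06) and DKK1 (-1.18) were measured, as given above. The members below the floor therefore do not stand for the pathway's targets as a group.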

How the data were processed

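Total RNA of H322c cells was hybridized to Affymetrix U133 Plus 2.0 arrays, 1 per condition, and samples were grouped by their treatment label. The authors deposited a table of signal intensity values on a linear scale. The submitters' processing notes name MAS5 without a version. This program subtracts background and scales each array by a single factor, and the 2% trimmed mean was 500 on both arrays, so a general rise or fall of transcript levels would not be visible. Spike-in probe sets added at hybridization had a mean log2 ratio of 0.19 (17 of 18 higher with gefitinib), and the 3′ to 5′ ratio was 1.01 with gefitinib and 0.95 with DMSO for GAPDH, and 1.36 with gefitinib and 1.19 with DMSO for ACTB. Precision is limited by the number of arrays.

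Of 54675 probe sets, 41097 had 1 annotated gene, 1801 had several and 11777 were not listed. Symbols were updated through RefSeq gene identifiers (GRCh38.p14, 41043 matched). A floor of 100 was applied and log2 ratios of gefitinib over DMSO were taken at the brightest probe set of each measured gene. No p-value was computed, and the procedure was tested on simulated data. The members and lists were chosen with earlier results of these data known. After values were seen, the reference for scaling to GAPDH was changed to the GAPDH gene value in place of its 3′ control probe set (both are given), the SD between probe sets was limited to those at the floor on both arrays (0.58 over 5432 genes without that limit), and the printed promoters were chosen anew so as to include DKK1. Every measured member is named, with up to 4 genes of each further list, those farthest from a log2 ratio of 0. CCND1, list genes under the floor and cell type markers were named outside this rule, after their values were seen. Alternatives were quantile normalization, centring on control probe sets, scaling to GAPDH or to spike-ins, lowess correction (span 0.3), floors of 50 and 200, log2 of the signal plus 50, other probe set choices, and thresholds of 1.5-fold and 3-fold. Python 3.11.15, numpy 2.4.6, pandas 2.3.3, statsmodels 0.14.6 and matplotlib 3.10.9 were used.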

Additional observations from a re-analysis of the deposited data

How the results depend on the processing

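There was 1 array per condition, and 62 of 132 WNT pathway probe sets reached the floor on neither array. None of the 18 genes past 2-fold changed direction, and 443 of 453 values of single genes under the alternatives moved by less than the SD of 0.54 between probe sets. Many of these values could not have moved that far, so the count is not a measure of stability. Scaling by a single factor shifted log2 ratios by 0.27 at most (GAPDH). Genes with 1 measured probe set could not move with probe set choice. The number of members at least 2-fold higher was 14 as deposited and between 10 (mean over probe sets) and 16 (centring on control probe sets or scaling to GAPDH). It was 6 at a 3-fold threshold. The share of all measured genes that were higher was 13.3% as deposited and 11.0% as the mean over probe sets. It was 17.0% with control probe sets, 20.6% with GAPDH and 4.78% at a 3-fold threshold, so the member counts moved along with all genes. The number lower was 4 as deposited, 1 when scaled to GAPDH, 7 at a 1.5-fold and 1 at a 3-fold threshold. Beside these, the share of all measured genes that were lower was 6.20%, 3.64%, 14.95% and 2.05%. Higher calls were 77.8% of members past 2-fold as deposited and 94.1% when scaled to GAPDH, a scaling that moved the median of all genes to 0.37. For all measured genes this share was 68.2% as deposited, 85.0% with GAPDH, 78.3% with control probe sets and 50.5% with spike-ins, where the median of all genes was -0.07. Scaled to the 3′ control probe set of GAPDH instead, the version run first, 16 members were higher and 3 lower, LRP5 and DKK1 kept their call and WNT9A lost it. LRP5, DKK1 and WNT9A lost their call with GAPDH, while FZD2 and LEF1 gained it (log2 ratios of 1.23 and 1.24). With spike-in scaling FZD1 (0.84) and APC (0.91) lost it and CTNNB1 (-1.02) gained it. As the mean over probe sets, FZD1 (0.98), FZD3 (0.89), APC (0.27) and WNT2B (0.86) were under 2-fold and WNT4 was at 1.16. With a floor of 50, ROR1 was at -1.66. Of the genes in the further lists, 7 were higher and 2 lower as deposited, beside 13.3% and 6.20% of all measured genes. The lists held 3, 4, 14, 9 and 7 measured genes, with NOTUM among both the ligands and the targets. The number higher was 12 at a 1.5-fold (26.4% of all genes) and 4 at a 3-fold threshold (4.78%). The number lower was 1 with control probe sets (4.71% of all genes), with either GAPDH reference (3.64%, and 4.34% with the 3′ control probe set) or at a 3-fold threshold (2.05%). Those alternatives for the further lists were chosen after seeing the data.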
